A study of Mus musculus with 12 samples.

Results

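The genes described here are 9 mouse genes of complement and the acute phase response: C1ra, Serping1, C4b, Cfb, C3, Cd55, Saa3, Lcn2 and Ptx3. They were found by gene symbol in the platform annotation, and for each gene the probe set with the highest mean log2(signal + 16) over 12 arrays was read out. A probe set of their own was found for 7 of the 9 genes, C4b shared its probe set with its near copy C4a, and C3 was not analysed here. Of the 7, 5 (C1ra, Cfb, Saa3, Lcn2 and Cd55) reached a signal of 100 on at least 4 arrays and were tested together with all other genes, 10269 in total. C1ra passed that filter through the 4 tmTNF arrays alone and Cfb through 3 tmTNF arrays and 1 control array, so a count of tested genes is no support for a difference.

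The arrays (Affymetrix, 5 ug of total RNA each) measured cultured endothelial cells of wild-type newborn mice, the cells that line blood vessels, grown in DMEM with foetal calf serum. In the tmTNF group (n = 4) the cells carried a stably transfected murine TNF mutant that stays in the membrane because it cannot be cleaved, which the labels describe as constant activation. In the soluble TNF group (n = 4) the cells received soluble TNF at 20 ng/ml for 4 h, and the control group (n = 4) was mock-transfected. The labels give neither the promoter of the construct, nor whether the transfected cells are a single clone, nor whether the soluble TNF cells were also mock-transfected. They do not say that replicates were separate cultures or animals, and if they were not, the p-values reflect technical spread alone.

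Complement is a cascade of plasma proteins that tag and lyse targets. In the classical pathway the protease C1r activates C1s, which cuts C4 and C2, in the alternative pathway factor B and C3 build the convertase, and inhibitors such as C1 inhibitor and CD55 hold the cascade back. Acute phase proteins such as serum amyloid A, lipocalin 2 and pentraxin 3 are made in greater amounts after inflammatory cytokines, in liver and also in cells outside it, endothelium included.

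RefSeq promoter windows (build GRCm38.p6, 300 bases, of which 250 lie before the start of the gene) were given for 6 of the 9 genes. The 250 bases before the start are printed for 3 of them: C1ra, which passed the test, Saa3, whose window held the most motif matches, and Lcn2, whose signal varied most between arrays of a group. They lie at chr6:124512371-124512620 on the plus strand (C1ra), chr7:46715677-46715926 on the minus strand (Saa3) and chr2:32387740-32387989 on the minus strand (Lcn2). Each is written 5′ to 3′ in the direction of the gene, and capitals mark motif matches.
C1ra: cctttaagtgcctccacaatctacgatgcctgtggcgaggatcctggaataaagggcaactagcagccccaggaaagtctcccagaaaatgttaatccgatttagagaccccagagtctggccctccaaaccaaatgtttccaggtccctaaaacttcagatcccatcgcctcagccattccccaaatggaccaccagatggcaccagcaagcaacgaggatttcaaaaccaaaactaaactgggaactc
Saa3: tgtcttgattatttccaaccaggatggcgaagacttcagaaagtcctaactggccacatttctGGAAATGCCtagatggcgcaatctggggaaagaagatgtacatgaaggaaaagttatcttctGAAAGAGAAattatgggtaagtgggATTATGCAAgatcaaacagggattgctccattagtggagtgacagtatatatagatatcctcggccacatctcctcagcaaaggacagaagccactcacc
Lcn2: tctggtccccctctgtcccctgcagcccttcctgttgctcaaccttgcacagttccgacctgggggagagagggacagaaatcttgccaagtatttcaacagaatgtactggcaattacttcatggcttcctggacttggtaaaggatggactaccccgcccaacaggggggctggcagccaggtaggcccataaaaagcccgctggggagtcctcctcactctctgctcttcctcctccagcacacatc

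The 4 motifs searched on both strands were an NF-kB core (GGNNNTTCC, in 18.5% of all 32851 windows), an interferon response core (GAAANNGAA, 8.56%), a STAT core (TTCNNNGAA, 8.30%) and a C/EBP core (TTGCNNAAT, 2.40%). In Saa3 the first capitals are an NF-kB core match on the minus strand at positions -187 to -179 from the start, the next an interferon response core match at -125 to -117, and the last a C/EBP core match on the minus strand at -100 to -92. C1ra held 1 match, a STAT core inside the gene at bases 33 to 41, outside the printed stretch. Cd55 held an NF-kB core match, Ptx3 an NF-kB core and a C/EBP core match, and C3 a C/EBP core match. None of the 4 motifs matched in the Lcn2 window, and no match overlapped another. A match describes these letters only.

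All signals below are the deposited intensities, scaled so that the 2% trimmed mean of an array is 500. The arrays of a group were far from alike: Pearson correlations between arrays over the 10269 tested genes were 0.796 to 0.939 in tmTNF, 0.877 to 0.983 in soluble TNF and 0.744 to 0.881 in control. The summed signal of 14 endothelial markers was 27690 to 142700 on tmTNF arrays, 38560 to 89370 on soluble TNF arrays and 19950 to 133700 on control arrays, and the 3 lowest were on tmTNF 2, tmTNF 4 and control 3. Tnf itself stayed under 100 on all 12 arrays (77.2 at most, on tmTNF 3), and whether the construct holds the probed sequence is not given in the sources used here. The Y-linked genes Eif2s3y, Kdm5d and Uty read 219 or more on each tmTNF array, against at most 39.5 on every soluble TNF and control array. The transfection and the source of the cells therefore cannot be told apart in any comparison with tmTNF. In bulk RNA, fewer cells of a type and less RNA per cell cannot be told apart either.

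**Figure D1:**
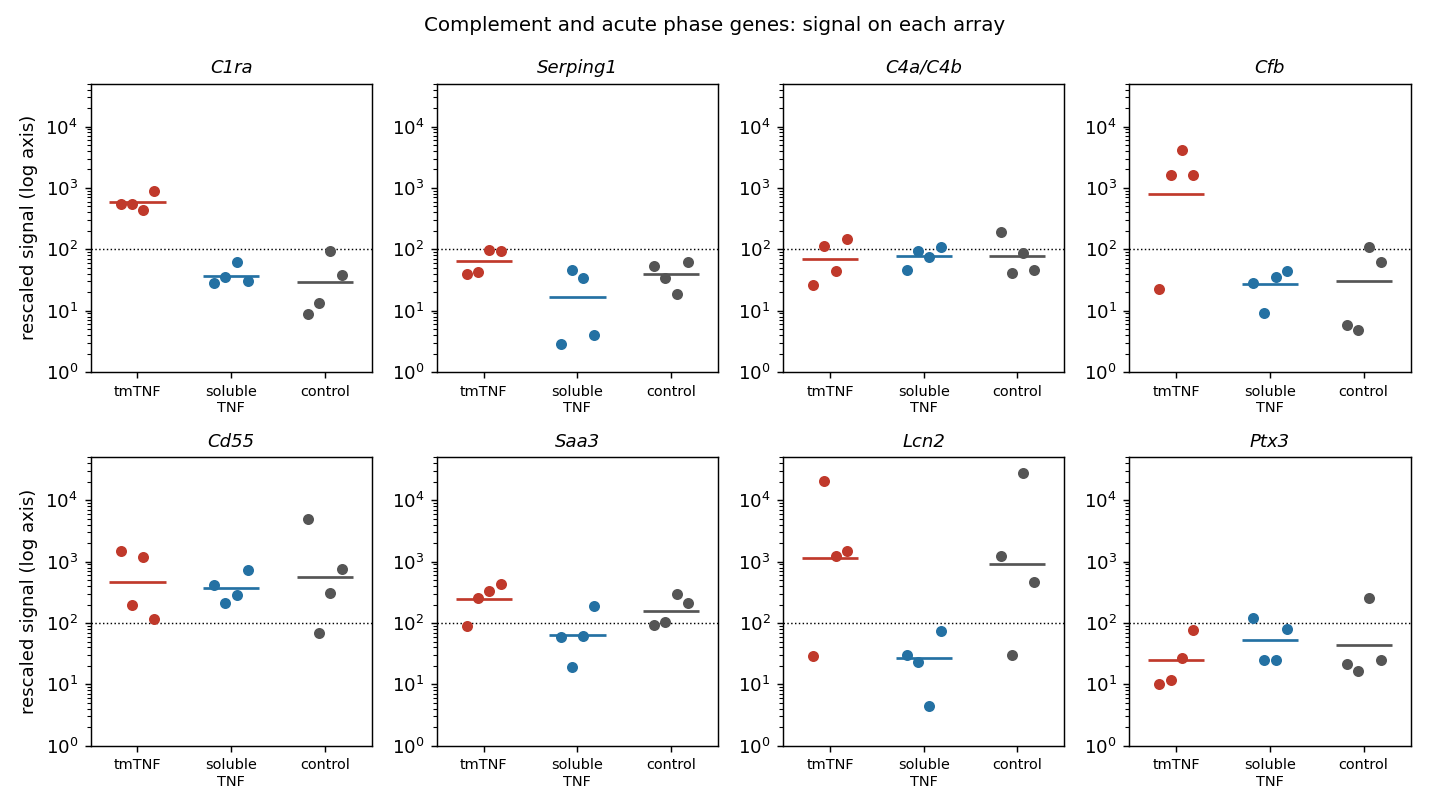
Rescaled signal (log axis) of the 8 genes or shared probe sets on each array, by group; points are arrays, horizontal lines are group means taken on the log2(signal + 16) scale, and the dotted line is a signal of 100. The 4 tmTNF arrays of C1ra lie between 445 and 888, above every soluble TNF and control array, while the groups of every other gene overlap.

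C1ra, the protease that starts the classical pathway by activating C1s, was higher in tmTNF cells than in soluble TNF or control cells. Its signals were 541, 553, 445 and 888 on the tmTNF arrays, 28.0, 35.0, 61.2 and 30.6 on the soluble TNF arrays, and 8.88, 13.3, 93.2 and 37.5 on the control arrays. All 4 tmTNF arrays were above 100 and every array of the other groups was below it. In tmTNF cells C1ra rose at least 5.2-fold over control, with a log2 fold change of 3.73 ± 0.46 (SE; limma adjusted p = 0.00461). Here "at least" sets the tmTNF mean against a signal of 100, because all 4 control arrays lay under it. Over soluble TNF it rose by the same bound of 5.2-fold (log2 3.50 ± 0.46, adjusted p = 0.00387). Soluble TNF differed from control by a log2 value of 0.23 ± 0.46 (adjusted p = 0.864), with a 95% interval from -0.77 to 1.24.

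Of the 5 genes tested, 1 (C1ra) was called between tmTNF and control, where 0.195% of all genes were called (20 genes at an adjusted p under 0.05, either direction). The C1ra groups did not overlap, as was so for 2.19% of all genes with tmTNF higher and 0.984% with tmTNF lower. C1ra passed the filter through its tmTNF arrays alone, and the members were chosen with earlier results known. The count of 1 in 5 beside these shares is therefore no support for an excess among the members. Between soluble TNF and control, 0 of the 5 were called and 0 had groups apart, against 0.039% of all genes called (4 genes), 3.67% with groups apart and soluble TNF higher, and 4.44% with groups apart and soluble TNF lower. Over all genes that comparison had 1303 unadjusted limma p-values under 0.05, against 776 between tmTNF and control and 2041 between tmTNF and soluble TNF. Between tmTNF and soluble TNF, C1ra was again the 1 called, against 1.22% of all genes called (125), 10.3% with groups apart and tmTNF higher, and 5.86% with groups apart and tmTNF lower. Of the 125, 98 were higher and 27 lower in tmTNF, but with arrays set to the same median 70 were higher and 132 lower, a scaling under which the median over all genes was -0.10, against 0.08. The comparisons share arrays: both exposures are set against the same 4 controls. C1ra remained called in both comparisons with tmTNF in all 12 fits that left out 1 array. With tmTNF 2, tmTNF 4 and control 3 left out together, a setting chosen after the values were seen, its rise over control was 3.90 (adjusted p = 0.0593), while that over soluble TNF stayed called.

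The platform holds another probe set for C1ra, which it shares with the near copy C1rb. It read 140, 243, 90.9 and 213 on tmTNF arrays, 18.4, 25.8, 65.3 and 54.9 on soluble TNF arrays, and 3.21, 36.1, 89.6 and 30.4 on control arrays. All 4 tmTNF arrays were above all 8 others, by a narrow margin at control 3, and transcripts of C1ra and C1rb cannot be told apart there. C1s1, the partner protease that C1r cuts, also had its 4 tmTNF arrays above all others, although it reached 100 on only 3 arrays and so was not tested with the other genes. It read 93.5, 815, 227 and 716 on tmTNF arrays, 18.3, 1.31, 7.48 and 0.803 on soluble TNF arrays, and 11.4, 30.8, 20.4 and 21.7 on control arrays. Set against a signal of 100, under which all other arrays lay, the C1s1 mean in tmTNF was 3.08-fold higher, with tmTNF 1 kept at 93.5. In a limma fit without the filter C1s1 was higher in tmTNF than in control (adjusted p = 0.0474) and than in soluble TNF (adjusted p = 0.00771). C1s1 was named because its groups lay apart, so its separation and these p-values are no separate support for the C1ra difference.

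Serping1 encodes C1 inhibitor, which binds and blocks C1r and C1s. Its signals were 40.1, 42.3, 97.3 and 93.2 on tmTNF arrays, 2.86, 46.0, 34.6 and 3.97 on soluble TNF arrays, and 53.1, 34.2, 18.9 and 62.4 on control arrays. All 12 lay under 100 and the groups overlapped, so no fold is given. In the fit without the filter the adjusted p-values were 0.904 for tmTNF against control, 0.652 for soluble TNF against control and 0.228 for tmTNF against soluble TNF.

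The probe set shared by C4a and C4b, the fourth component that C1s cuts, read 26.1, 115, 44.3 and 145 on tmTNF arrays, 45.4, 92.0, 74.2 and 109 on soluble TNF arrays, and 190, 40.4, 85.5 and 46.1 on control arrays. The groups overlapped throughout, with the highest value on control 1. Its log2 differences were -0.11 ± 0.53 between tmTNF and control (adjusted p = 0.982), 0.01 ± 0.53 between soluble TNF and control (adjusted p = 0.997) and -0.12 ± 0.53 between tmTNF and soluble TNF (adjusted p = 0.920). These come from a fit of every probe set on its own, and the 95% interval for tmTNF against control ran from -1.26 to 1.03.

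Among 14 genes of the classical and lectin pathways on the array, 2 were tested, C1ra and Masp1, a protease of the lectin pathway. C1ra was the only one called. Masp1 differed by -0.08 between tmTNF and control, -1.15 between soluble TNF and control and 1.07 between tmTNF and soluble TNF on the log2 scale (adjusted p = 0.991, 0.435 and 0.326). Of the 14, 8 never reached 100 on any array.

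Cfb encodes factor B, the protease of the alternative pathway. It read 22.4, 1632, 4081 and 1626 on tmTNF arrays, 28.7, 9.29, 35.4 and 44.6 on soluble TNF arrays, and 5.92, 4.82, 111 and 62.1 on control arrays. Of the tmTNF arrays, 3 were above every other array by more than an order of magnitude, and tmTNF 1 was among the soluble TNF and control values. The log2 differences were 4.13 ± 1.19 between tmTNF and control (adjusted p = 0.314), -0.09 ± 1.19 between soluble TNF and control (adjusted p = 0.986) and 4.22 ± 1.19 between tmTNF and soluble TNF (adjusted p = 0.0968). None passed the threshold. Against soluble TNF, whose 4 arrays lay under 100, the tmTNF mean was at least 6.96-fold higher, a bound of 4.05-fold without tmTNF 3 and 19.2-fold without tmTNF 1.

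The library tmTNF 1 decided that result. Without it, the Cfb difference was 5.60 over control (adjusted p = 0.0025) and 5.69 over soluble TNF (adjusted p = 0.00227), both past the threshold. With array weights, which give less weight to arrays far from their group, the difference was 4.25 over control (adjusted p = 0.297) and 4.32 over soluble TNF (adjusted p = 0.0171). The endothelial marker sum was 142700 on tmTNF 1, where Cfb was low, and 138200 on tmTNF 3, where Cfb was highest. On tmTNF 2 and tmTNF 4, where Cfb was also high, it was 27690 and 29690. Cfp, which encodes properdin, the stabiliser of the alternative convertase, was the other gene of that pathway tested. It read 118 to 180 on tmTNF arrays, 77.5 to 127 on soluble TNF arrays and 47.8 to 128 on control arrays, with log2 0.55 ± 0.32 between tmTNF and control (adjusted p = 0.782).

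Cd55 encodes decay-accelerating factor, a membrane protein that breaks up the C3 convertases. It read 1490, 195, 1198 and 115 on tmTNF arrays, 418, 209, 282 and 719 on soluble TNF arrays, and 4935, 69.8, 304 and 758 on control arrays. The control arrays alone spanned 70.7-fold, the tmTNF arrays 12.9-fold and the soluble TNF arrays 3.43-fold, and the groups overlapped. The log2 differences were -0.26 ± 1.11 (tmTNF against control, adjusted p = 0.981), -0.57 ± 1.11 (soluble TNF against control, adjusted p = 0.859) and 0.31 ± 1.11 (tmTNF against soluble TNF, adjusted p = 0.901). The interval for tmTNF against control ran from -2.68 to 2.15, so a change of several fold either way was not detectable with these arrays.

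The other Cd55 probe sets with 1 symbol had the same arrays on top, with tmTNF 1 second to control 1 on all 3 probe sets of Cd55. Leukocyte and macrophage markers moved with the same arrays: their summed signal over 13 genes was 7679, 980, 9267 and 539 on tmTNF arrays, 404 to 698 on soluble TNF arrays, and 18920, 811, 2573 and 1086 on control arrays. On control 1 and tmTNF 1 most of that sum was Cd68 (6728 on tmTNF 1 and 18210 on control 1), and on tmTNF 3 Cd68 (4295) stood beside Lyz1 (3272) and Lyz2 (1357). Ptprc, which marks all leukocytes, never rose above 38.8. Of the 13 markers, 10 stayed under 100 on all tmTNF arrays and 9 on all control arrays, and the part of other cells in the Cd55 levels was not tested.

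The other complement lists held 0 called genes in each comparison. Of 16 complement regulators on the array 4 were tested: Cd55, Cd59a, which blocks the terminal complex, Cr1l and Clu. Clu, the secreted chaperone clusterin, read 408, 853, 5524 and 1025 on tmTNF arrays, 17.1, 175, 3367 and 73.7 on soluble TNF arrays, and 234, 251, 15.1 and 168 on control arrays. All tmTNF arrays were above all control arrays, as in 2.19% of all tested genes, but the log2 difference of 3.11 ± 1.27 did not pass (adjusted p = 0.604). Cr1l, a membrane regulator of complement in rodents, read 1919 to 3835 on all 12 arrays, and its log2 differences lay between -0.33 and 0.29. Susd4 did not pass the filter.

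Of 8 complement receptors 4 were tested. Itgb2, the beta chain of complement receptor 3, read 51.8, 597, 517 and 55.6 on tmTNF arrays, 56.6, 27.1, 16.7 and 68.7 on soluble TNF arrays, and 244, 106, 150 and 218 on control arrays. Every soluble TNF array was below every control array, as in 4.44% of all tested genes, with a log2 difference of -1.79 ± 0.72 (adjusted p = 0.347). C1qbp, the receptor for the globular heads of C1q, differed by at most 0.27 on the log2 scale. No gene of the terminal pathway was tested, since 5 of the 6 on the array never reached 100, C8g among them.

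**Figure D2:**
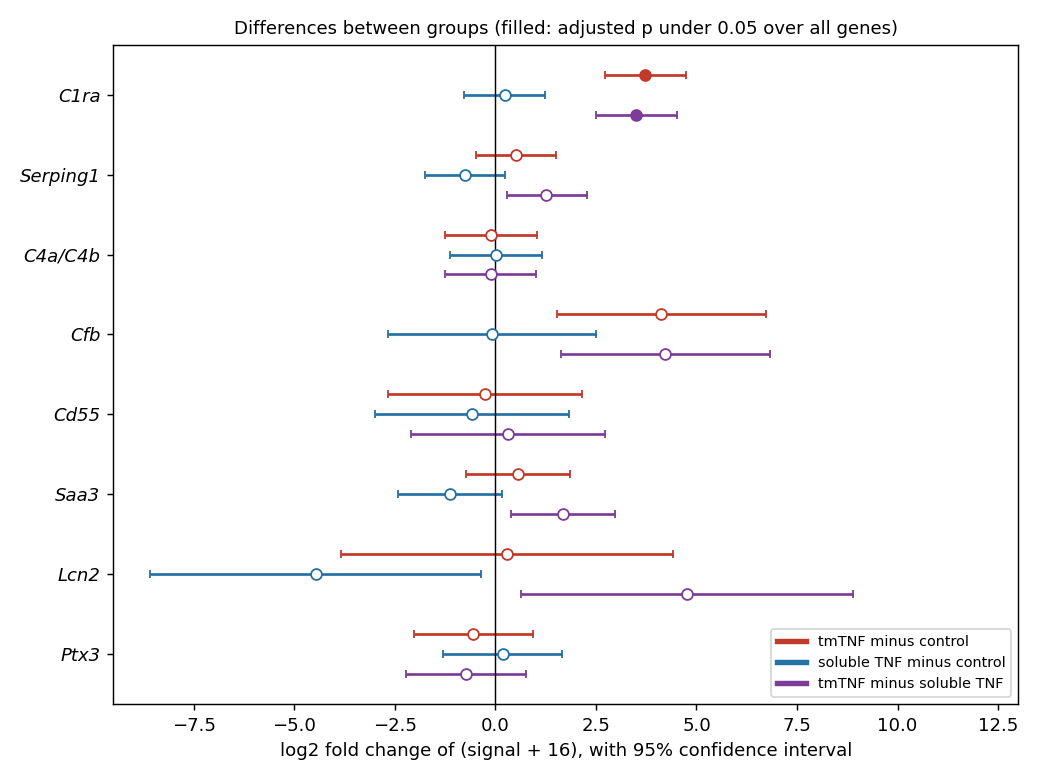
Log2 fold changes of (signal + 16) in the 3 comparisons, tmTNF minus control, soluble TNF minus control and tmTNF minus soluble TNF, with 95% confidence intervals from the limma fits (Serping1 and Ptx3 without the filter, C4a/C4b with every probe set on its own). Filled points passed an adjusted p of 0.05, which only C1ra did, at 3.73 over control and 3.50 over soluble TNF.

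Saa3 encodes a serum amyloid A protein made outside the liver. It read 89.7, 253, 334 and 433 on tmTNF arrays, 59.5, 19.2, 60.7 and 190 on soluble TNF arrays, and 92.3, 104, 299.8 and 210 on control arrays. Of the soluble TNF arrays 3 lay below every other array, and the fourth lay within the range of the other groups. The log2 differences were 0.57 ± 0.59 between tmTNF and control (adjusted p = 0.911), -1.12 ± 0.59 between soluble TNF and control (adjusted p = 0.457) and 1.68 ± 0.59 between tmTNF and soluble TNF (adjusted p = 0.155). None passed the threshold, and no alternative setting brought one past it.

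Lcn2 encodes lipocalin 2, which binds bacterial siderophores and so withholds iron. It read 28.6, 20700, 1235 and 1516 on tmTNF arrays, 29.7, 22.7, 4.42 and 74.3 on soluble TNF arrays, and 1239, 30.1, 28090 and 473 on control arrays. All 4 soluble TNF arrays lay under 100, while tmTNF and control each held 1 array near 30 and 1 array brighter by orders of magnitude. The ratio of the highest to the lowest array was 723 within tmTNF and 934 within control. The log2 differences were 0.29 ± 1.89 between tmTNF and control (adjusted p = 0.989), -4.47 ± 1.89 between soluble TNF and control (adjusted p = 0.369) and 4.76 ± 1.89 between tmTNF and soluble TNF (adjusted p = 0.195). The soluble TNF mean was at least 8.14-fold lower than that of control and the tmTNF mean at least 9.95-fold higher than that of soluble TNF. Single arrays moved both bounds: without control 3 soluble TNF was at least 2.63-fold lower than control (log2 -2.84), and without control 2 at least 22.3-fold lower. Without tmTNF 2, tmTNF was at least 3.8-fold higher than soluble TNF (log2 3.37), and without tmTNF 1 at least 29.4-fold higher. Neither difference passed the threshold, with a within-group SD of 3.09, the 12th largest of the 10269 genes.

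The arrays with the highest Lcn2 were those with the fewest endothelial and the most mesothelial transcripts. On tmTNF 2, Lcn2 was 20700, the endothelial sum 27690 and the sum of 8 mesothelial markers 14150. On control 3, Lcn2 was 28090, the endothelial sum 19950 and the mesothelial sum 10620. The mesothelial sum did not order the remaining arrays by Lcn2: it was 4284 and 4447 on soluble TNF 1 and 4, where Lcn2 was 29.7 and 74.3, and 533 on control 1, where Lcn2 was 1239. In each group 6 of the 8 mesothelial markers stayed under 100 on all arrays, among them Upk3b and Wt1, and the sum was carried by Krt19 and Msln. The 6 hepatocyte markers summed to 138 to 223 on tmTNF arrays, 72.3 to 124 on soluble TNF arrays and 77.7 to 94.1 on control arrays, with Alb at 38.2 or less on every array. Epithelial markers summed to at most 435 over 8 genes. Fibroblast markers summed to 751 to 8830 on tmTNF arrays, 1178 to 10570 on soluble TNF arrays and 2216 to 15450 on control arrays, highest on control 3. The part of these cell types in the Lcn2 levels was not tested.

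**Figure D3:**
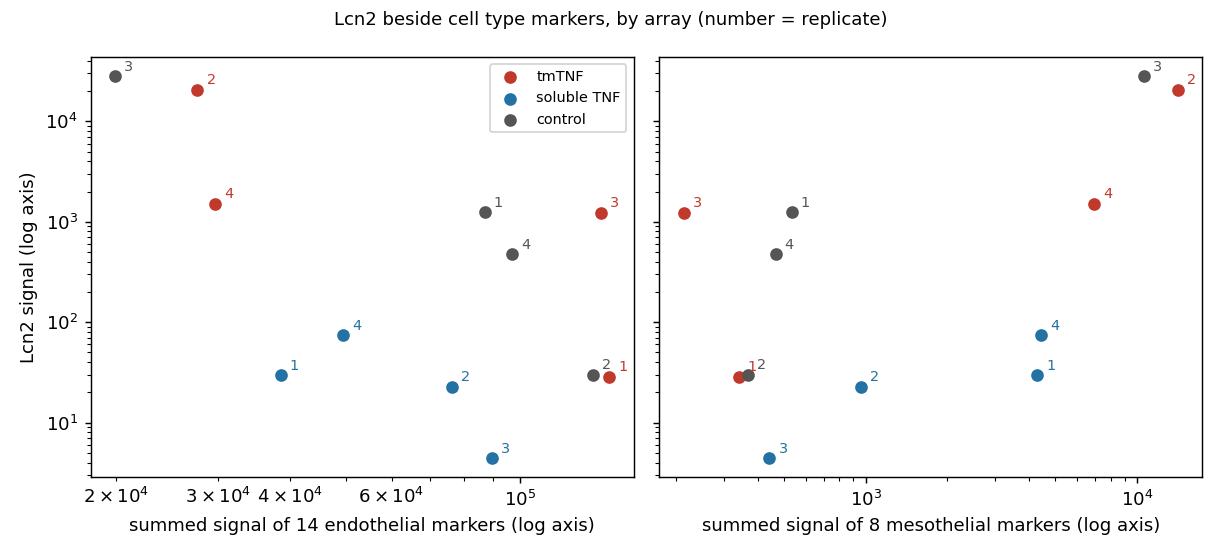
Lcn2 signal against the summed signal of 14 endothelial markers (left) and 8 mesothelial markers (right) on each of the 12 arrays, all on log axes, with replicate numbers beside the points. The arrays tmTNF 2 and control 3 have the highest Lcn2 (20700 and 28090), the lowest endothelial sums (27690 and 19950) and the highest mesothelial sums (14150 and 10620).

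Ptx3 encodes pentraxin 3, a long pentraxin made by vascular and myeloid cells after cytokines. It read 10.2, 11.7, 27.2 and 75.9 on tmTNF arrays, 119, 25.3, 24.6 and 80.3 on soluble TNF arrays, and 21.1, 16.6, 253 and 24.6 on control arrays. Only soluble TNF 1 and control 3 reached 100, so Ptx3 was not tested with the other genes. In the fit without the filter the adjusted p-values were 0.940 (tmTNF against control), 0.960 (soluble TNF against control) and 0.668 (tmTNF against soluble TNF). Its second probe set never reached 100.

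Of 33 genes for acute phase proteins on the array, 8 were tested and 0 were called in any comparison. Their median log2 difference was 0.43 between tmTNF and control, against 0.03 over all genes, and 7 of the 8 were above 0, against 53.2% of all genes. Between soluble TNF and control it was -1.96, against -0.05, and 1 of the 8 was above 0, against 45.8%. Between tmTNF and soluble TNF it was 2.14, against 0.08, and 8 of the 8 were above 0, against 55.9%. The 8 genes were read on the same arrays, so these counts are not separate results. The median within-group SD of these 8 genes was 2.48 on the log2 scale, against 0.45 over all tested genes.

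Lbp, which encodes the binding protein that hands lipopolysaccharide to CD14, was the tested gene of that list whose groups lay apart. It read 3661, 14960, 2530 and 6367 on tmTNF arrays, 779, 516, 890.3 and 1494 on soluble TNF arrays, and 1647, 3786, 14930 and 5441 on control arrays. Every soluble TNF array was below every array of the other groups. The log2 differences were 0.20 ± 0.66 between tmTNF and control (adjusted p = 0.969), -2.45 ± 0.66 between soluble TNF and control (adjusted p = 0.241) and 2.65 ± 0.66 between tmTNF and soluble TNF (adjusted p = 0.0703), none past the threshold. Hamp2 and Tnfaip6 had every soluble TNF array above every control array, the opposite direction to Lbp. Saa4 had every tmTNF array above every soluble TNF array. Hamp2, Tnfaip6 and Saa4 stayed under 100 on all 12 arrays and did not pass the filter. Over all tested genes, groups lay apart with soluble TNF above control in 3.67% and below it in 4.44%. The share with tmTNF above soluble TNF was 10.3%.

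Single arrays held most of the acute phase signal. Of the 20 acute phase genes that reached 100 on any array, 4 had their highest value on tmTNF 2 and 9 had it on control 3. Of the 33 genes, 5 to 10 reached 100 on each tmTNF array, 6 to 7 on each soluble TNF array, 7 or 8 on control 1, 2 and 4 and 14 on control 3, and 4 genes reached it on control 3 alone. Serpina3n, a serine protease inhibitor of the acute phase, read at most 32.0 on tmTNF arrays and 7.98 on soluble TNF arrays, and 3555 on control 3 with at most 35.9 on the other controls. Orm1, which encodes orosomucoid, read 157 on tmTNF 2 and 2497 on control 3, and Hp, which encodes haptoglobin, read 565 on tmTNF 2 and 337 on control 3. Serpina3n, Orm1 and Hp were chosen for mention after their values were seen.

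**Figure D4:**
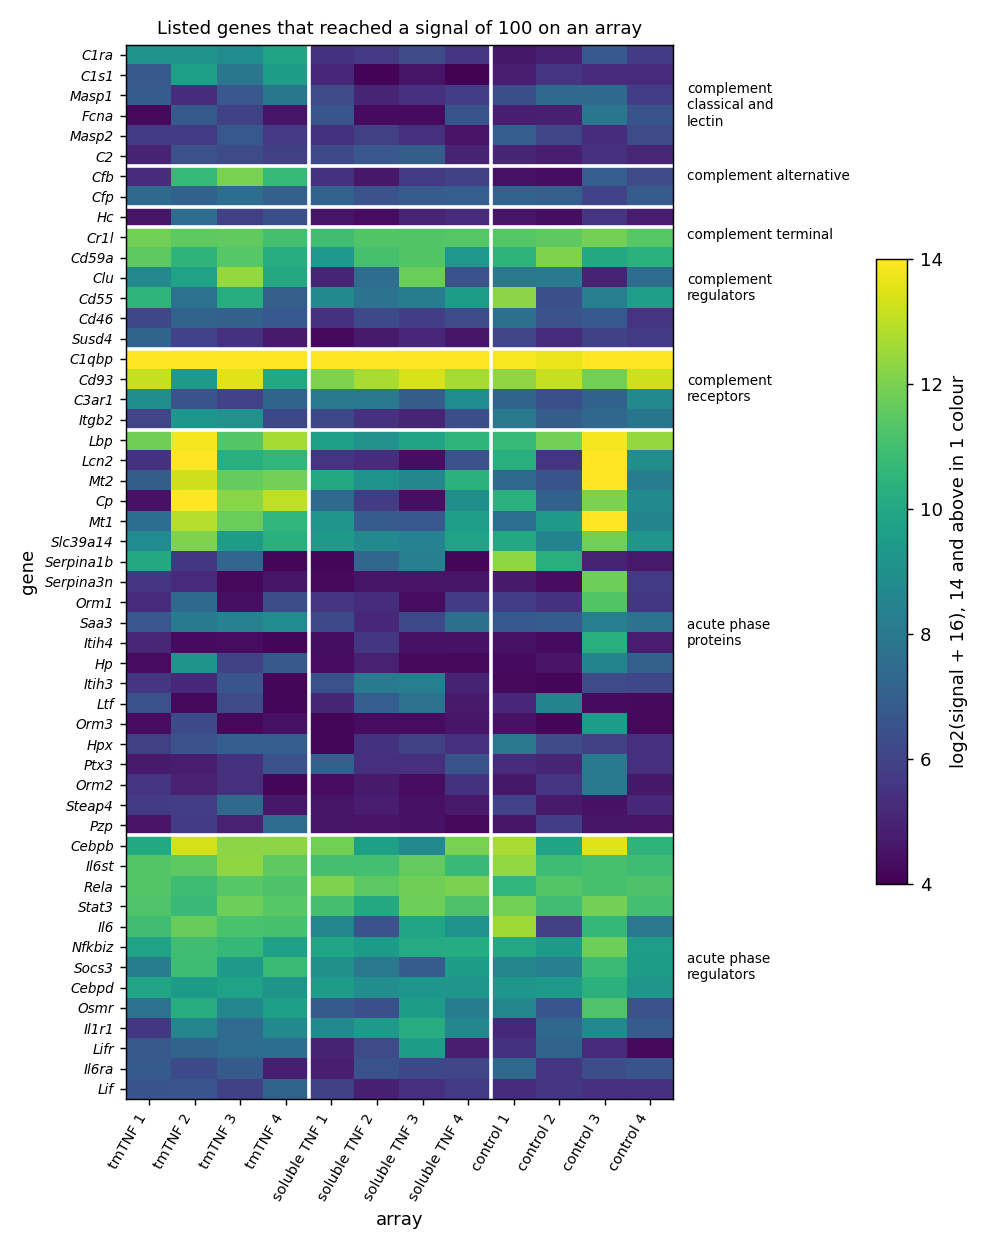
Log2(signal + 16) of the 52 complement and acute phase genes that reached a signal of 100 on an array (rows, grouped by list) on the 12 arrays (columns, tmTNF, soluble TNF and control); colours above 14 are not told apart, and colours of different rows are not comparable levels. C1ra and C1s1 are bright across the tmTNF columns, while the acute phase rows are often brightest on tmTNF 2 and control 3.

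Among 17 regulators of the acute phase on the array, which are cytokines, their receptors and transcription factors, 11 were tested and 0 were called. Il6, the main inducer of the liver response, read 1933, 3251, 2200 and 2192 on tmTNF arrays, 374, 77.8, 949 and 546 on soluble TNF arrays, and 6033, 42.9, 1619 and 231 on control arrays. All tmTNF arrays were above all soluble TNF arrays (log2 2.65 ± 1.17, adjusted p = 0.235), while the controls spanned the whole range. Groups lay apart in that direction in 10.3% of all tested genes. Rela, the p65 subunit of NF-kB, read 1911 to 2661 on tmTNF arrays, 2867 to 4311 on soluble TNF arrays and 1520 to 2535 on control arrays. Its soluble TNF arrays were above all others, with a log2 difference from control of 0.80 ± 0.21 (adjusted p = 0.226). Soluble TNF lay wholly above control in 3.67% of all tested genes. Cebpb, a factor that drives acute phase genes, read 1061 to 10350 on tmTNF arrays, 412 to 4040 on soluble TNF arrays and 901 to 11620 on control arrays, with log2 0.33 ± 0.98 between tmTNF and control (adjusted p = 0.965). Lif did not pass the filter.

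The tested members differed in how much the arrays of a group varied. The within-group SD on the log2 scale was 0.64 for C1ra, 0.91 for Saa3, 1.80 for Cd55, 1.91 for Cfb and 3.09 for Lcn2, against a median of 0.45 over all tested genes. A larger SD was found in 27.3% of genes for C1ra, 14% for Saa3, 2.52% for Cd55, 2.02% for Cfb and 0.107% for Lcn2. Across the 12 arrays, which share their groups and scaling, Cfb had a Pearson r of 0.79 with C1ra, 0.76 with Saa3 and 0.62 with Lcn2, and Saa3 had 0.73 with Lcn2. Cd55 had r between -0.14 and 0.03 with the other 4.

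Some genes followed a member closely across the 12 arrays, by Pearson r of log2(signal + 16). C1ra was most like Rnf213 (r = 0.977) and Parp11 (r = 0.960). Lcn2 was most like Dhrs7 (r = 0.957) and Prr32 (r = 0.951), and Saa3 most like Zbtb42 (r = 0.942) and Dnal4 (r = 0.939). Cfb was most like Rundc3b (r = 0.907) and Ddr2 (r = 0.901), and Cd55 most like Dcaf17 (r = 0.904) and Nfatc4 (r = 0.896). Rnf213 and Parp11 were themselves called, with log2 differences between tmTNF and control of 1.93 ± 0.24 and 1.97 ± 0.25 (adjusted p = 0.00461 for both). Both were picked for their likeness to C1ra, whose tmTNF arrays lay apart, so these calls are no separate support.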

How the data were processed

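Arrays carried 45101 probe sets, 64 of them controls. The authors deposited linear signal intensities, 1 per probe set, computed by MAS5 (per the submitters' processing notes). The MAS5 version and settings are not given in the sources used here, and detection calls were not used here, so a signal of 100 stood in for the background limit. The deposited intensities had a 2% trimmed mean of 1000 on every array. Here they were scaled to 500, leaving out control probe sets, and turned into log2(signal + 16). Added to every signal, the 16 makes fold changes of dim genes smaller than they are. Probe sets with 1 symbol that reached 100 on at least 4 arrays were kept, and the one with the highest mean stood for a gene.

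All 12 arrays entered 1 limma fit of 3 groups (version 3.58.1, R 4.3.3, eBayes with an intensity trend, two-sided, Benjamini-Hochberg over 10269 genes, threshold 0.05), which was also tested on simulated data. Values after ± are SE, and 4 arrays a group limit the precision. Genes under the filter were read from the same model without it, and C4a/C4b from a fit of every probe set. Promoter letters are from RefSeq (GRCm38.p6), used for no coordinate of the arrays.

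Genes named were the 9 members, and per list the called genes, the 3 largest changes per comparison among groups that did not overlap, and the gene with the highest mean, plus the 2 genes most like each tested member. The members, the lists and this rule were chosen with earlier results of these data known. Alternatives were other scalings, pseudocounts of 1 and 64, no filter or one at 250, other merging of probe sets, other variance models, fits of 2 groups only and leaving out each array.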

Additional observations from a re-analysis of the deposited data

Results flagged for a closer look

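Ptx3 on the control arrays was set apart by 1 sample. Control 3 read 253 while the other control arrays read 16.6 to 24.6, and on the log2(signal + 16) scale the gap to the nearest array was 0.896 of the group's range, above Dixon's 95% critical value for 4 samples. Among 24 groups of arrays looked at in this way (8 genes or probe sets in 3 groups), this was the 1 past that value on the log2 scale, and chance flags about 1 in 20 groups. On the linear signals 4 of the 24 groups were past it: Ptx3 in control (0.966), Lcn2 in tmTNF (0.928), Lcn2 in control (0.957) and Cd55 in control (0.859). Control 3 also had the lowest endothelial marker sum (19950), and the part of that in the Ptx3 value was not tested.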

How the results depend on the processing

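Of 372 tested values for single genes under 25 alternatives, 349 kept their direction and their side of the threshold. Many could not change direction, since a changed filter or leaving out an array of the group not compared keeps the difference of means. Most were not called in the main fit, so this count is not a measure of stability. The rise of C1ra in tmTNF over control was 2.74 to 4.46 on the log2 scale and was lost as a call only when tmTNF 2, tmTNF 4 and control 3 were left out together, an alternative added after seeing the data (0 members and 4 genes called, against 1 and 20). There soluble TNF against control had 17 genes called, against 4. Leaving out 1 array gave 1 to 2 members in both comparisons with tmTNF (2 without tmTNF 1, by Cfb), 16 to 66 genes for tmTNF against control (66 without tmTNF 1), 0 to 22 for soluble TNF against control (22 without control 4) and 28 to 233 for tmTNF against soluble TNF (233 without control 1, 28 without soluble TNF 2). Testing every probe set called 38 for tmTNF against control. For tmTNF against soluble TNF, arrays at the same median called 202, array weights 1176 genes and 2 members, and only the 2 groups compared 439; the last called 2 for soluble TNF against control. Signs turned only in differences that passed no threshold. Lcn2 between tmTNF and control was -1.16 to 1.92 with 1 array left out and -0.37 without the 3 arrays. Cd55 was -1.17 to 0.78 and 0.97 in the same comparison, -1.48 to 0.47 between soluble TNF and control (0.04 with array weights), and -0.25 to 0.93 between tmTNF and soluble TNF (-0.16 with array weights). Between soluble TNF and control, C1ra was -0.06 to 0.65 with 1 array left out, and Cfb was -0.47 to 0.40, 0.21 with a pseudocount of 1 and 0.40 without the 3 arrays. The causes were not tested. Of 225 untested values 224 moved by less than 1 SD, but many of them could not move. They are plain differences of group means, which filters, merging of probe sets and variance models leave as they are. Leaving out an array of the group not compared does not change them either, so this count is no measure of stability. No paired analysis was possible because the labels give no replicate numbers. The replicate numbers used here follow the order of the deposited samples within a group and pair no arrays.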
